A study of Homo sapiens with 14 samples.

Results

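The mitochondrial ribosomal proteins were followed here through the transcripts of the nuclear genes that encode them. Members were all genes whose symbol is MRPL or MRPS, a number and at most a letter A, B or C. The rule used names alone and no measured value. It found 78 genes, of which 77 were among the 16405 genes of the knockdown table and all 78 among the 12325 genes of the RB98# table. MRPL53 was in the RB98# table only.

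Mitochondria hold their own ribosome, which translates the few messenger RNAs of the mitochondrial genome into core subunits of the respiratory chain. Its ribosomal RNAs come from mitochondrial DNA, but its proteins are encoded in the nucleus, made on cytosolic ribosomes and imported. The particle is richer in protein than the bacterial ribosome, since its mammalian form has shortened RNAs and many proteins with no counterpart in bacteria. Acute myeloid leukemia cells are known to depend on mitochondrial translation. The MRPL genes encode proteins of the large subunit (LSU), which joins amino acids, and the MRPS genes mostly those of the small subunit (SSU), which reads the message. MRPS30 and MRPS18A sit in the large subunit despite their symbols and were counted there, and MRPS36 belongs to a metabolic enzyme complex and was kept apart.

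The cells were Kasumi-1, an established myeloblast line from a leukemia with the 8;21 translocation, and every group carries that translocation. RNA-seq counts were used from 10 libraries in 2 experiments. In the first, lentivirus delivered an shRNA against RBPMS, an RNA-binding protein (shRBPMS, n = 3), or a scramble control (shCtrl, n = 3) for 48 h, and puromycin selection followed for 48 h. In the second, cells received RB98#, a compound named by code only (n = 2), or the solvent DMSO (n = 2). Dose and exposure time of RB98# were not stated. Whether replicates were separate cultures was not stated either, so every p-value measures the spread between these libraries, which may be technical.

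The summed counts were 25223595, 27664003 and 27123740 in shRBPMS libraries, against 24027255, 27395071 and 34375418 in shCtrl libraries. They were 15190868 and 13854281 in RB98# libraries, against 14179599 and 15347684 in DMSO libraries. Levels below are in CPM, counts scaled to a common library size with the TMM factors of edgeR. Markers of Kasumi-1 cells were present in every library, with KIT at 642 to 1030 CPM in the knockdown experiment and 589 to 804 CPM in the RB98# experiment. The erythroid marker HBB, the fibroblast markers COL1A1 and COL1A2, KRT8 and the B cell marker MS4A1 were in neither table, whereas the epithelial marker EPCAM had 26.6 to 65.4 CPM. RBPMS had 2.53, 3.34 and 3.08 CPM in shRBPMS libraries, against 20.4, 7.24 and 7.39 CPM in shCtrl libraries, so all 3 knockdown libraries lay below all 3 controls.

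Replicate 1 of each knockdown group stood apart from replicates 2 and 3. The sample descriptions put replicate 1 in one label set and replicates 2 and 3 in another, without saying what a set is. The members' summed level was 3297, 4037 and 4031 CPM in shRBPMS replicates 1 to 3, against 2941, 3875 and 3814 CPM in shCtrl. Of 76 members tested, 58 were lower in replicate 1 than in replicates 2 and 3 in shRBPMS, and 58 were in shCtrl. The share of all genes lower in replicate 1 is not given here. MRPL12, the stalk protein that also binds the mitochondrial RNA polymerase, had 9.95 CPM in shRBPMS replicate 1 and 45.7 and 49.0 CPM in replicates 2 and 3, against 8.69, 48.3 and 43.0 CPM in shCtrl. In both groups replicate 1 was thus far below the other replicates. Mitochondrial genes took 13.2%, 6.95% and 6.76% of the counts in shRBPMS, against 15.2%, 6.28% and 6.20% in shCtrl. Over members the ratio of label set 1 to 2 in shCtrl had a Spearman rho of -0.38 with transcript GC content (n = 76 genes). Over 10273 genes the rho was -0.61, so the relation was not particular to the members. For the knockdown, a fit on group alone and a fit that blocks on replicate number are both given.

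**Figure D1:**
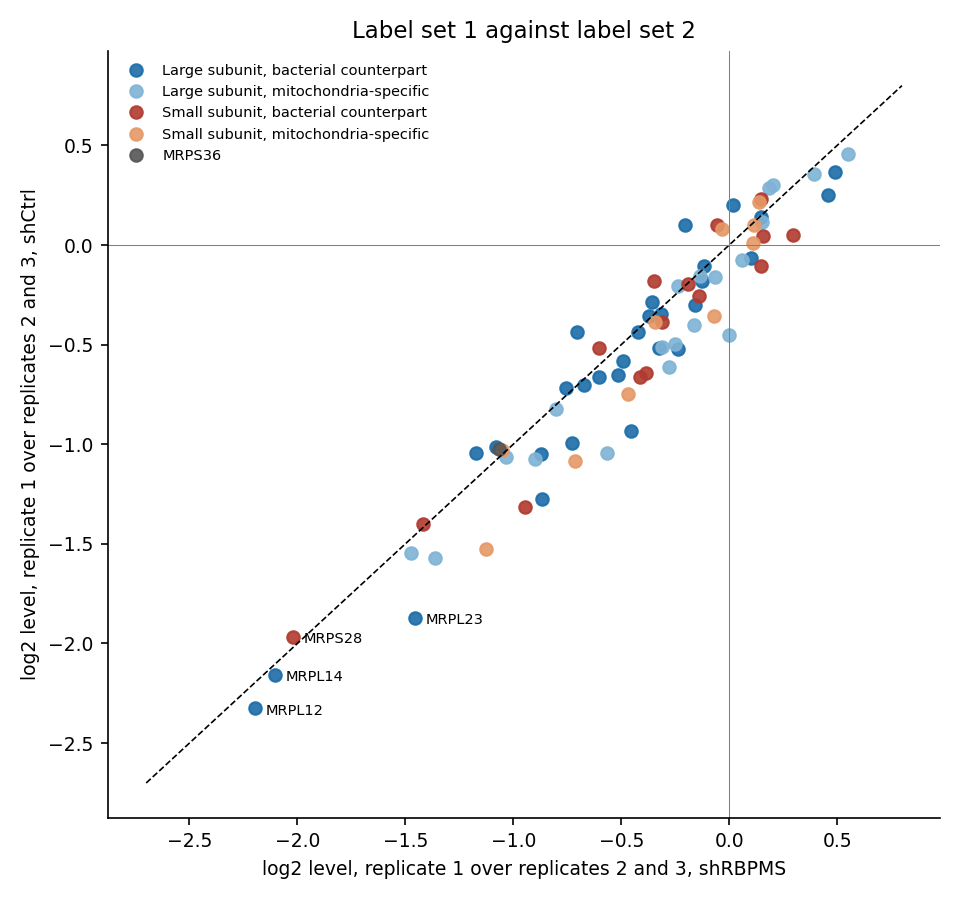
Each point is 1 member (n = 76), with the log2 ratio of its CPM in replicate 1 to that in replicates 2 and 3 in shRBPMS (horizontal axis) and in shCtrl (vertical axis), and the dashed line marks equal ratios. Points run along that line from above 0 to below -2, where MRPL12, MRPL14 and MRPS28 sit, so the offset between label sets was shared by both groups.

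The promoters of the members are shown first, since many members fell under RB98#. RefSeq promoter windows (build GRCh38.p14), each lying mostly upstream of a start of transcription, were found by symbol for 69 of the 78 members, as 85 windows. Each was searched on both strands for 5 sets of letters. The core of the ETS factor motif, CCGGAAG, was in 38.8% of the members' windows and in 10.3% of all 35116 windows of the table. The core of the YY1 motif, AAGATGG, was in 31.8% of the members' windows and in 5.84% of all. The other shares were 8.24% against 4.43% for GCGCATG, part of the NRF1 motif, 60.0% against 45.0% for the SP core GGGCGG, and 10.6% against 7.26% for the E-box CACGTG. Over the 21021 windows of protein-coding genes, the class to which the members belong, the shares were 12.9% for the ETS, 6.09% for the YY1, 5.29% for the NRF1, 57.0% for the SP and 8.40% for the E-box letters, so that the members' share of the SP core was close to theirs. These letters are descriptions of the windows, not binding sites, and members were not compared with genes of like function.

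The sites below come from the members with the lowest log2 change under RB98# that hold the ETS letters. Capitals mark CCGGAAG or its reverse complement CTTCCGG, and each is given 5′ to 3′ on the gene's strand with 10 bases on each side.
MRPS26, chr20:3046005-3046031, plus strand: ccccgcgccgCTTCCGGggcacggtgg
MRPS12, chr19:38930929-38930955, plus strand: cggatagcgcCCGGAAGaggctagaag
MRPL20, chr1:1407298-1407324, minus strand: aggggctgacCCGGAAGcgctcgtgac
MRPS34, chr16:1773137-1773163, minus strand: cttccggtgaCTTCCGGccggaccgct
MRPS23, chr17:57850042-57850068, minus strand: ggagcagccgCTTCCGGttccggtagc
MRPL16, chr11:59810768-59810794, minus strand: gtgaacacaaCTTCCGGccccactgag
All 6 sites start within 37 bases before the RefSeq start of transcription. The match nearest the start was taken in each window, so their closeness follows in part from that choice. The 45 matches in all members' windows had a median position of -26 from the start. A site in overlapping windows of the same gene counts more than once among these matches. In MRPS34 the reverse complement stands a second time in the flank, in lower case.

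The YY1 letters lay further downstream, with a median position of 8 bases after the start and 17 of 29 matches behind it. A site in overlapping windows can count more than once here too. The next stretches show AAGATGG or its reverse complement CCATCTT in capitals, for the same reason and with the same flanks. In each window the most downstream match was taken.
MRPS12, chr19:38930723-38930749, plus strand: atggacgcagCCATCTTggaccgggaa
MRPL36, chr5:1799855-1799881, minus strand: ccccccgccgCCATCTTccttcctggc
MRPL20, chr1:1407262-1407288, minus strand: cgacccgggcAAGATGGcagcggcgct
MRPS7, chr17:75261888-75261914, plus strand: gtggccagccAAGATGGctgcccccgc
MRPL20 and MRPS12 hold both sets of letters.

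The last pair shows a member that rose under RB98# and one that fell, each with the part of its window upstream of the start that lies outside annotated exons. In MRPS6 the capitals mark the SP core GGGCGG or its reverse complement CCGCCC, with overlapping matches, and in MRPL17 they mark GCGCATG, which matches on both strands in the same 10 letters.
MRPS6, chr21:34073328-34073522, plus strand: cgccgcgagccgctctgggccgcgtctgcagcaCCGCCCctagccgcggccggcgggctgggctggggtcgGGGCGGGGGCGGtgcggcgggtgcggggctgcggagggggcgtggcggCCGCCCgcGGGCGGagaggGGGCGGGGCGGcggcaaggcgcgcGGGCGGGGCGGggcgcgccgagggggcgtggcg
MRPL17, chr11:6683402-6683590, minus strand: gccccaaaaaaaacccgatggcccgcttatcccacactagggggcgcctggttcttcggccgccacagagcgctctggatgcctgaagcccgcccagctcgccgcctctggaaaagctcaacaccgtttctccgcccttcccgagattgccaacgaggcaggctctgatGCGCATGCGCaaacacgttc
MRPS6 held 9 matches of the SP core and neither the ETS nor the YY1 letters. That did not set it apart from members that fell, since MRPL17, MRPL34 and MRPS17 held neither of them as well. The SP core was present in members that fell too, such as MRPL34, MRPL41 and MRPL17, where its matches are not marked above. Among members with a window, 58.3% of those that fell and 62.8% of those that did not pass held it. Of the 24 members that fell and have a window, 14 (58.3%) held the ETS or the YY1 letters. Of the 43 that did not pass 30 (69.8%) did, and of all 69 members with a window 45 (65.2%) did. MRPL42, which also rose under RB98#, held the YY1 letters.

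RB98# lowered the transcripts of 28 members and raised those of 2, of 78 tested (edgeR quasi-likelihood test, Benjamini-Hochberg adjusted p under 0.05 over all genes). The share that fell was 35.9%, against 17.3% of all 12324 genes tested, and the share that rose was 2.56%, against 20.5% of all genes. Changed members of either direction made up 38.5%, close to the 37.8% of all genes. The change was negative in 59 of the 78 members, and its median was -0.19 on the log2 scale, against 6.53e-05 over all genes. Both RB98# libraries lay below both DMSO libraries in 50 members and above them in 9, where 34.0% and 34.3% of all genes did so. In bulk RNA, fewer cells with such transcripts and less of them per cell cannot be told apart.

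The members' summed level was 3534 and 3531 CPM in RB98# libraries, against 3938 and 3938 CPM in DMSO libraries. The 2 groups did not overlap, and the RB98# mean was 89.7% of the DMSO mean. Large and small subunit moved alike in sum, to 89.7% and 89.8% of their DMSO means. The ratio of the large to the small subunit sum was 1.52 and 1.56 in RB98#, against 1.53 and 1.55 in DMSO. Scaling by library totals alone moved the median of all genes to -0.10 and that of the members to -0.29, with 44 members lower and 2 higher. The share of all genes called with that scaling is not given here.

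In the large subunit, 18 of 51 members fell and 1 rose, with a median of -0.20. Among the 30 with a counterpart in bacteria, 13 fell, none rose and 28 had a negative change, with a median of -0.24. Among the 21 found in mitochondria only, 5 fell and 1 rose, with a median of -0.08. In the small subunit, 10 of 26 members fell and 1 rose, with a median of -0.17, including 6 lower and 1 higher of the 16 with a bacterial counterpart and 4 lower of the 10 without. No test compared these classes with one another. The falls ranged from -0.21 to -0.96, with a median of -0.41, and 5 of the 28 reached a 1.5-fold decrease.

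**Figure D2:**
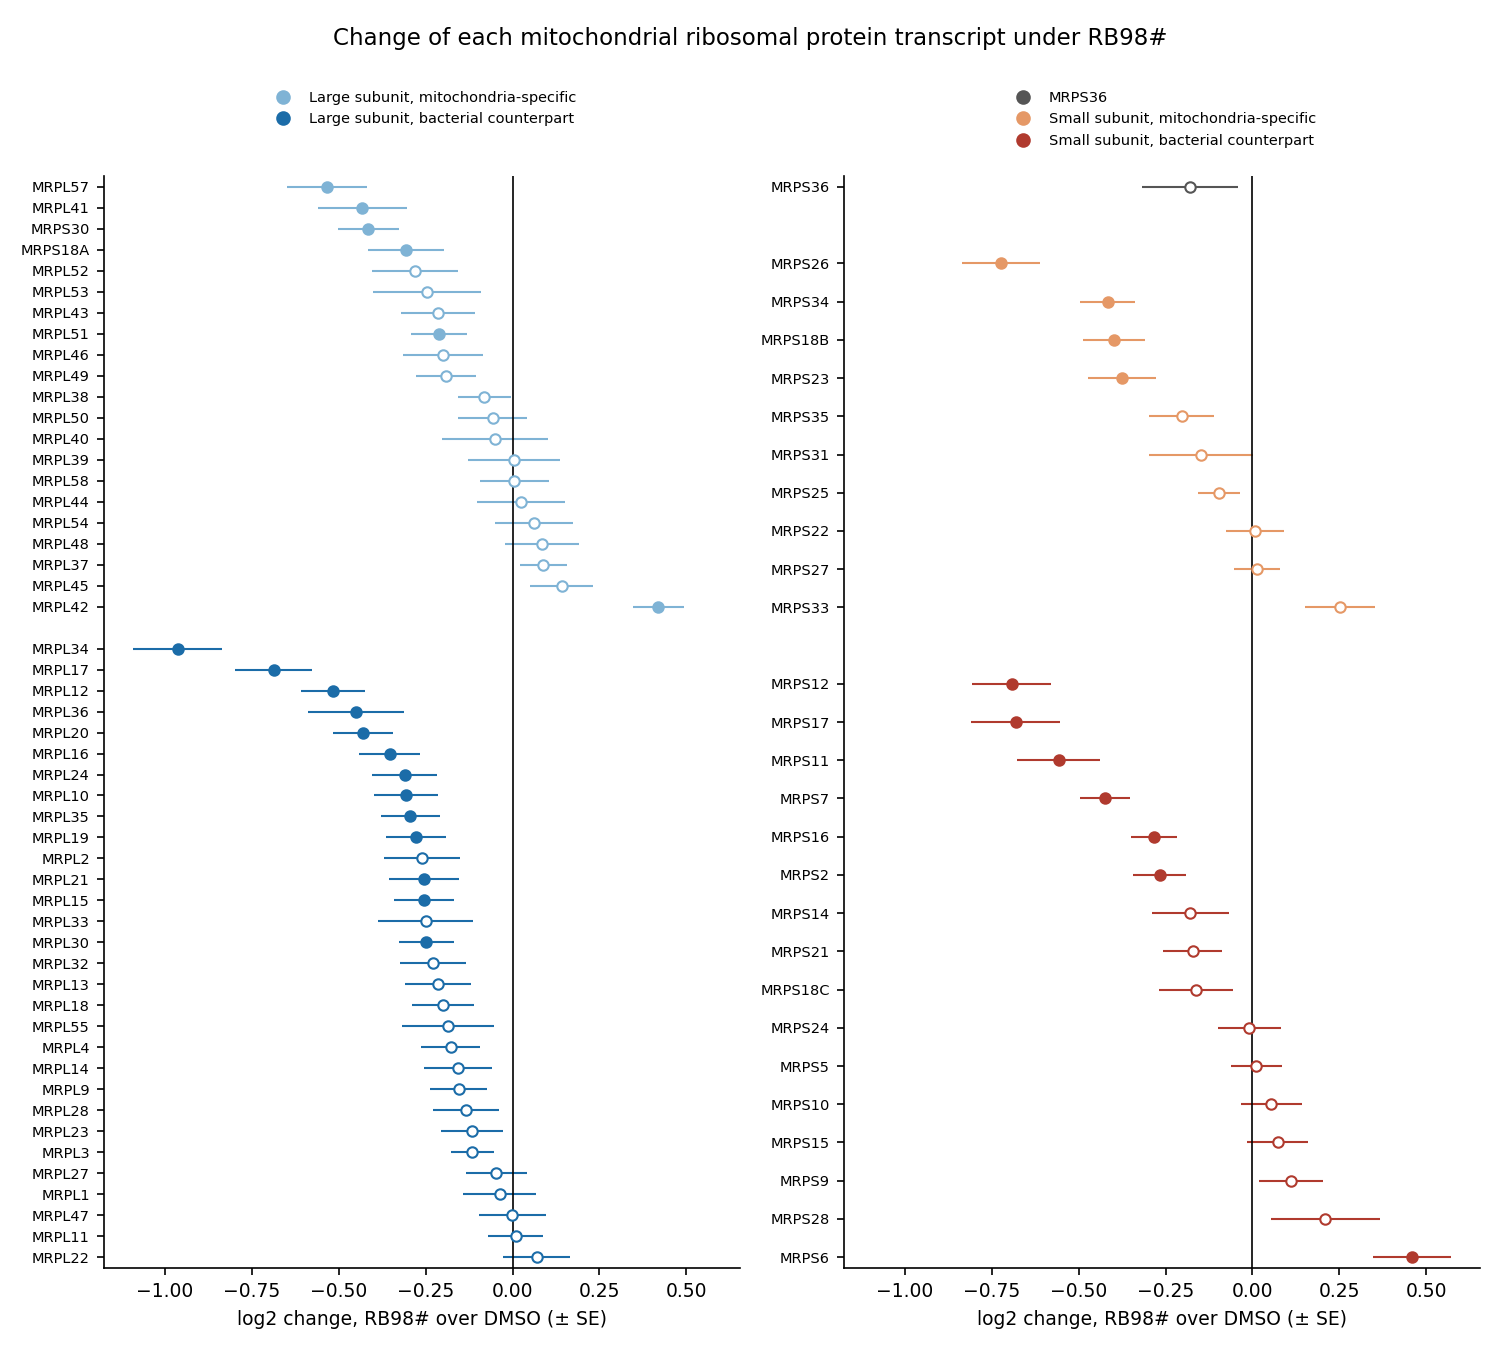
Points give the log2 change of each of the 78 members, RB98# over DMSO, with the SE as a bar, grouped by subunit and by counterpart in bacteria; filled points passed an adjusted p of 0.05. Filled points lie to the left of 0, down to -0.96 for MRPL34, except MRPL42 (0.42) and MRPS6 (0.46).

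MRPL34, a small protein buried in the RNA of the large subunit (chr19:17292609-17306843, plus strand, protein-coding), had the lowest change. It had 12.1 and 11.4 CPM in RB98# libraries, against 22.3 and 23.6 CPM in DMSO libraries. The groups were well apart, and each varied little. The log2 change was -0.96 ± 0.13 (SE), a 1.95-fold decrease (edgeR adjusted p = 1.84e-06).

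MRPL17, whose bacterial counterpart lies near the exit of the peptide tunnel (chr11:6680782-6683401, minus strand), had 18.1 and 21.1 CPM in RB98# libraries, against 32.6 and 30.4 CPM in DMSO libraries. Both treated libraries were below both controls, with a log2 change of -0.69 ± 0.11 (SE, edgeR adjusted p = 2.90e-05). MRPL12, named above, had 57.9 and 75.6 CPM in RB98# libraries, against 99.1 and 91.5 CPM in DMSO libraries. The 2 RB98# libraries differed more than the controls did but did not reach them, and its log2 change was -0.52 ± 0.09 (SE, edgeR adjusted p = 9.70e-05). Exons annotated to other genes on the same strand overlap 68.2% of MRPL12, which could affect its counts.

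Among the other large subunit members that fell were MRPL57 (-0.53), MRPL36 (-0.45), MRPL41 (-0.43), MRPL20 (-0.43) and MRPS30 (-0.42), all as log2 changes. MRPL20 is an early-binding protein of the bacterial assembly pathway, and MRPL36 is one of the smallest proteins of the subunit. MRPL16 (-0.35) lies near the tRNA sites, MRPL10 (-0.31) anchors the stalk on which MRPL12 sits, and MRPL24 (-0.31) lies by the tunnel exit in bacteria. MRPL35, MRPL19, MRPL21, MRPL15, MRPL30, MRPL51 and MRPS18A fell by 0.21 to 0.31. In all 18 both RB98# libraries lay below both DMSO libraries, but these members were picked for passing on the same values.

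MRPS12 forms part of the decoding centre, where codon and anticodon are checked (chr19:38930548-38933162, plus strand). It had 17.5 and 18.9 CPM in RB98# libraries, against 30.9 and 27.9 CPM in DMSO libraries. The treated libraries were both lower, with a log2 change of -0.69 ± 0.11 (SE, edgeR adjusted p = 3.04e-05). Its 16.3% overlap with exons on the other strand could add reads of another gene, since the counting is not stated to use strand.

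MRPS26, a small subunit protein with no bacterial counterpart (chr20:3045945-3048254, plus strand), had 20.3 and 21.6 CPM in RB98# libraries, against 38.2 and 31.1 CPM in DMSO libraries. Its DMSO libraries differed from each other by more than its RB98# libraries did, yet the groups stayed apart. The log2 change was -0.72 ± 0.11 (SE, edgeR adjusted p = 1.78e-05). No annotated exon of another gene overlaps it.

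MRPS17, an RNA-binding protein of the early small subunit in bacteria (chr7:55951819-55956501, plus strand), had 12.9 and 15.4 CPM in RB98# libraries, against 23.6 and 21.7 CPM in DMSO libraries. MRPS11, a protein of the subunit's platform (chr15:88467453-88480773, plus strand), had 17.4 and 22.8 CPM in RB98# libraries, against 29.6 and 29.5 CPM in DMSO libraries. Both genes had lower values in both RB98# libraries, and the RB98# libraries spread more than the DMSO ones for each. The log2 change was -0.68 ± 0.13 for MRPS17 and -0.56 ± 0.12 for MRPS11 (SE, edgeR adjusted p = 0.000166 and 0.000663). Exons annotated to other genes on the same strand overlap 27.0% of MRPS17, which could affect its counts.

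MRPS11 shares a divergent start region with another member, MRPL46, whose gene begins 34 bases away on the opposite strand. MRPL46 had 19.2 and 19.1 CPM in RB98# libraries, against 21.4 and 22.6 CPM in DMSO libraries. Its groups did not overlap either, but its log2 change of -0.20 ± 0.12 (SE) did not pass (edgeR adjusted p = 0.184). Of the 78 annotated members, 17 (21.8%) start within 1000 bases of a divergent protein-coding gene, against 7.38% of 19951 protein-coding genes.

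The remaining small subunit members that fell were MRPS7 (-0.42), MRPS34 (-0.42), MRPS18B (-0.40), MRPS23 (-0.38), MRPS16 (-0.28) and MRPS2 (-0.27), as log2 changes. MRPS7 and MRPS2 have bacterial counterparts that bind near the path of the messenger RNA, and MRPS16 is a protein whose loss in patients impairs mitochondrial translation. MRPS18A, MRPS18B and MRPS18C are 3 paralogs of 1 bacterial protein at different places in the ribosome. MRPS18A had a log2 change of -0.31 ± 0.11, MRPS18B of -0.40 ± 0.09 and MRPS18C of -0.16 ± 0.11 (SE, edgeR adjusted p = 0.0291, 0.00102 and 0.243), and the differences between them were not tested.

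The 2 members that rose were MRPS6 and MRPL42. MRPL42, a large subunit protein found in mitochondria only (chr12:93467488-93516213, plus strand), had 128 and 112 CPM in RB98# libraries, against 90.9 and 88.8 CPM in DMSO libraries. Both treated libraries were higher, by 0.42 ± 0.07 on the log2 scale (SE, edgeR adjusted p = 6.81e-05), a 1.34-fold increase. The annotation names 4 pseudogenes of MRPL42, so reads could be split between copies.

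MRPS6, a peripheral protein of the small subunit (chr21:34073224-34143034, plus strand), had 48.7 and 37.8 CPM in RB98# libraries, against 28.9 and 34.1 CPM in DMSO libraries. The groups were apart by less than the RB98# libraries were from each other. The log2 change was 0.46 ± 0.11 (SE, edgeR adjusted p = 0.00219). It was 0.25 (edgeR adjusted p = 0.0811) without RB98# replicate 1 and 0.35 (edgeR adjusted p = 0.0658) without DMSO replicate 1.

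**Figure D3:**
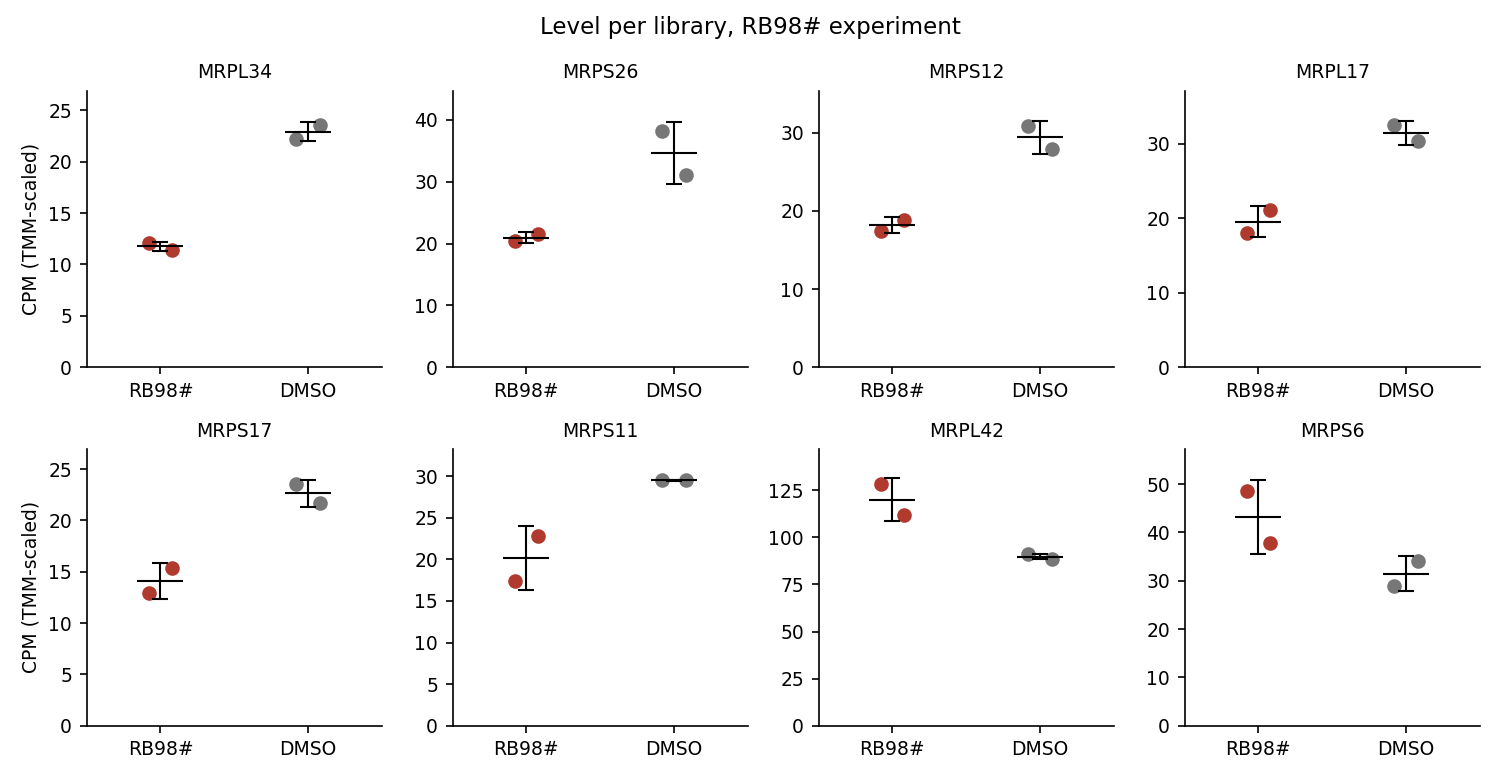
CPM of the 8 members with the largest changes in each direction, 1 dot per library, RB98# on the left and DMSO on the right of each panel; bars show mean and SD (n = 2). RB98# dots are below DMSO dots in the first 6 panels and above them for MRPL42 and MRPS6.

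The 48 members that did not pass had log2 changes of -0.28 to 0.25 with SEs of 0.06 to 0.16, and 31 were negative. MRPL11, a protein of the stalk base, had 63.3 and 63.6 CPM in RB98# libraries, against 62.9 and 63.3 CPM in DMSO libraries. MRPS22, a small subunit protein mutated in a mitochondrial disease, had 56.2 and 52.2 CPM in RB98# libraries, against 54.4 and 53.5 CPM in DMSO libraries. Their levels were nearly the same in both groups, with log2 changes of 0.01 ± 0.08 for each (SE).

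MRPL58, a release factor built into the ribosome that frees stalled chains, had 30.9 and 33.5 CPM in RB98# libraries, against 30.7 and 33.3 CPM in DMSO libraries. MRPS27, a pentatricopeptide repeat protein, MRPL44, which has an RNase III fold, and MRPL45, at the tunnel exit where chains meet the inner membrane, had log2 changes of 0.01, 0.02 and 0.14. MRPL3, near the peptidyl transferase centre, had -0.12, and MRPL32, which the m-AAA protease matures, had -0.23 (edgeR adjusted p = 0.146 and 0.0574). MRPL33 had -0.25 and MRPS33 had 0.25 (edgeR adjusted p = 0.16 and 0.0537).

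The count of members that fell changed with the library left out. It was lower without either DMSO library and higher without either RB98# library. Such fits leave 1 library in a group, so their counts are not given here. With a block on replicate number, 27 fell and 2 rose, where 16.6% and 19.3% of all genes did. In the authors' deposited table, 15 members were lower and 2 higher at an adjusted p under 0.05. The share of all genes that passed there is not given here. Across members the RB98# change had a Spearman rho of -0.34 with the GC content and 0.15 with the length of the transcript (n = 77 genes that share the same 4 libraries), against -0.13 and 0.17 over 12315 genes. The part of GC content in the falls was not tested.

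Members that fell and members that did not pass held the promoter letters in like shares, which were not tested. Of the 24 members that fell and have a window, 10 (41.7%) held the ETS letters and 9 (37.5%) the YY1 letters. Of the 43 that did not pass, 20 (46.5%) held the ETS letters and 14 (32.6%) the YY1 letters. Over all 69 members with a window, the median log2 change was -0.19 with the ETS letters and -0.18 without.

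Among the genes that serve the mitochondrial ribosome, 9 of 29 assembly factors fell under RB98# and 1 rose, with a median log2 change of -0.14. Together these were 34.5% of the list, close to the 37.8% of all genes. By direction the shares were unlike, with 31% lower and 3.45% higher, against 17.3% and 20.5% of all genes. MRM1 (-0.88) and MRM2 (-0.58) methylate the large ribosomal RNA, MIEF1 (-0.61) encodes a fission factor and, from an upstream frame, an assembly protein, and METTL15 (0.52), which rose, methylates the small ribosomal RNA. Of the 16 genes for mitochondrial RNA synthesis and decay 9 fell (56.2%, against 17.3% of all genes) and none rose, with a median of -0.27, including FASTKD3 (-0.93), the transcription factor TFB2M (-0.90) and the poly(A) polymerase MTPAP (-0.53). GADD45GIP1 (-0.29) was the single gene that fell of 5 ribosome proteins with other symbols.

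Translation factors of the mitochondria changed in 3 of 16 cases, or 18.8%, against 37.8% of all genes. TSFM (-0.53), which recharges the elongation factor, and PTRH2 (-0.33), a peptidyl-tRNA hydrolase, fell, and MTRF1L (0.35), a release factor, rose. Of 22 tRNA synthetase genes of mitochondria 6 fell, with PARS2 (-0.77) and MARS2 (-0.64) lowest, and 2 rose, namely GARS1 (0.55), which also serves the cytosol, and WARS2 (0.42). These 8 genes were 36.4% of that list, near the share of all genes. By direction, 27.3% fell and 9.09% rose, against 17.3% and 20.5% of all genes.

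The messages that this ribosome translates did not share the members' direction. Of the 13 mitochondrially encoded mRNAs 7 rose and 3 fell (53.8% and 23.1%, against 20.5% and 17.3% of all genes), with a median log2 change of 0.12, as in MT-ND4 (0.25) and MT-ND2 (-0.20), both subunits of complex I. The 2 mitochondrial ribosomal RNAs did not pass. The proteins of the cytosolic ribosome, a list of 82 drawn by symbol, held 17 genes that rose (20.7%, near the 20.5% of all genes) and 1 that fell, with a median of 0.10. No test compared the lists.

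RBPMS knockdown changed the members less clearly. With group alone, none of 76 members tested passed in either direction, where 1.97% of all 16215 genes did (0.629% higher and 1.34% lower), and 5 of the 76 members had an unadjusted p under 0.05, against 2733 of all 16215 genes. DESeq2 called 1 member higher and 1 lower, and limma-voom called none. With the replicate block, 11 members rose and 5 fell by edgeR, which was 21.1% of the members against 28.1% of all genes (13.3% higher and 14.8% lower). With the label set as covariate, 17 rose and 7 fell, where 35.8% of all genes were called (17.5% higher and 18.4% lower). Most calls of the block were lost when replicates 2 and 3 were summed into 1 library a group with the label set as covariate. In that fit 5 members rose, MRPL4 and MRPS18B among them, and MRPL35 alone fell. The share of all genes called in that fit is not given here. The median log2 change was 0.10 with group alone and 0.11 with the block, against 0.02 and 0.02 over all genes. It was -0.07 without shCtrl replicate 1 and 0.20 without shRBPMS replicate 1. Without overlap, 8 members were higher and 6 lower, where 12.3% and 13.6% of all genes were.

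MRPL4, a large subunit protein whose bacterial counterpart reaches into the exit tunnel (chr19:10251901-10260045, plus strand), stood out among members whose groups did not overlap. It had 79.7, 72.7 and 76.0 CPM in shRBPMS libraries, against 48.2, 51.4 and 49.4 CPM in shCtrl libraries. All 3 knockdown libraries were above all 3 controls, in both label sets. The log2 change was 0.62 ± 0.11 with group alone (SE, edgeR adjusted p = 0.0504) and 0.61 ± 0.07 with the block (SE, edgeR adjusted p = 0.00161). The authors' deposited table gives 0.59 and an adjusted p of 0.0121. At an adjusted p under 0.05 it holds 3 members that were higher, MRPL4, MRPS33 and MRPL24, and 1 that was lower, MRPL35. The share of all genes that passed there is not given here. Exons on the other strand overlap 21.4% of MRPL4.

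MRPS18B (chr6:30617709-30626395, plus strand) had 42.6, 44.2 and 45.5 CPM in shRBPMS libraries, against 27.9, 37.3 and 34.7 CPM in shCtrl libraries. The groups did not overlap, and the lowest value was that of shCtrl replicate 1. Its log2 change was 0.41 ± 0.09 with the block (SE, edgeR adjusted p = 0.0143) and 0.40 ± 0.15 with group alone (SE, edgeR adjusted p = 0.229).

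MRPS15 and MRPL10, both with bacterial counterparts, rose by less with the block, by 0.25 and 0.24 on the log2 scale, and their groups did not overlap. With replicates 2 and 3 summed neither passed (edgeR adjusted p = 0.1365 for MRPS15 and 0.192 for MRPL10). MRPL24 (0.66), MRPS33 (0.65), MRPL52 (0.39), MRPL16 (0.35), MRPL1 (0.27), MRPS21 (0.22) and MRPL37 (0.20) also rose with the block, but their groups overlapped, because the label sets differed more than shRBPMS and shCtrl. MRPL24 had 45.7 CPM in shRBPMS and 23.7 CPM in shCtrl in replicate 1. It had 84.6 and 83.3 CPM in shRBPMS, against 61.1 and 55.0 CPM in shCtrl, in replicates 2 and 3. Within each label set its knockdown values were thus the higher ones. MRPL24 and the others of this group were named after their values were seen.

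MRPL35, a small protein of the large subunit core (chr2:86199355-86213794, plus strand), had 42.8, 38.6 and 38.8 CPM in shRBPMS libraries, against 60.6, 55.3 and 54.8 CPM in shCtrl libraries. All knockdown libraries were lower, in both label sets, with a log2 change of -0.51 ± 0.06 with the block (SE, edgeR adjusted p = 0.00236), a 1.42-fold decrease. With group alone the same change had an SE of 0.12 and an edgeR adjusted p of 0.0902. The annotation names 4 pseudogenes of MRPL35.

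MRPS2, which binds the small subunit late in bacteria (chr9:135499984-135504673, plus strand), had 39.9, 43.5 and 44.5 CPM in shRBPMS libraries, against 50.3, 60.9 and 59.4 CPM in shCtrl libraries. MRPS6 had 23.0, 22.7 and 25.2 CPM in shRBPMS libraries, against 32.8, 30.7 and 30.4 CPM in shCtrl libraries. The groups were apart for both genes, with log2 changes of -0.41 ± 0.07 and -0.40 ± 0.08 with the block (SE, edgeR adjusted p = 0.00589 and 0.0118). Neither passed with replicates 2 and 3 summed (edgeR adjusted p = 0.0549 and 0.0502). MRPL33 (-0.30) and MRPL14 (-0.28) fell with the block as well, with groups that overlapped.

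**Figure D4:**
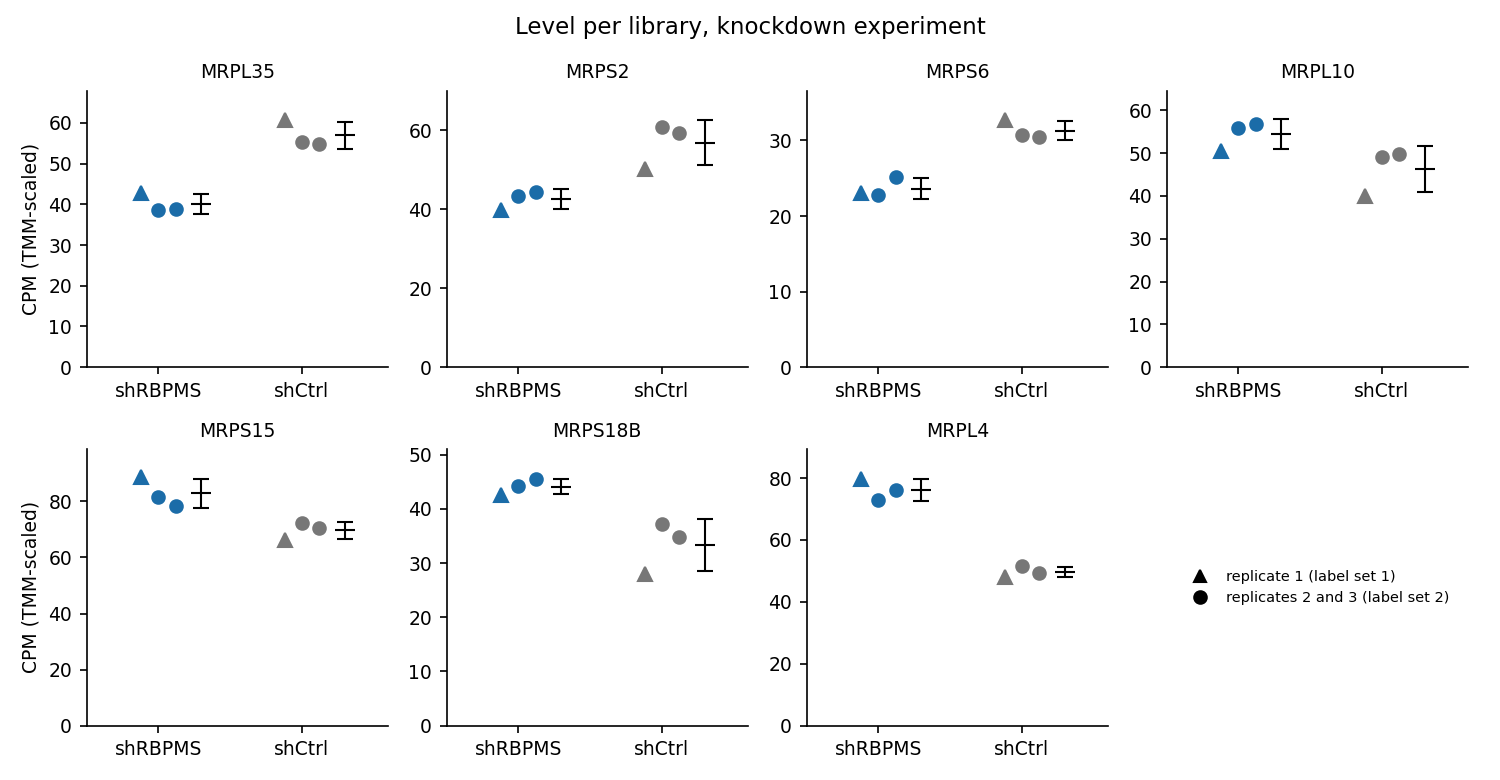
CPM of the 7 members that passed with the replicate block and whose groups did not overlap, 1 symbol per library, shRBPMS on the left and shCtrl on the right; triangles are replicate 1, circles replicates 2 and 3, and bars show mean and SD (n = 3). The knockdown is lower for MRPL35, MRPS2 and MRPS6 and higher for MRPL10, MRPS15, MRPS18B and MRPL4.

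By class, with the block, 7 of 50 large subunit members rose and 3 fell (20% changed), and 4 of 25 small subunit members rose and 2 fell (24%), against 28.1% of all genes. The assembly factors had 7 higher and 1 lower of 29 (27.6%, near the share of all genes). By direction these were 24.1% and 3.45%, against 13.3% and 14.8% of all genes. The translation factors had 6 higher and none lower of 16 (37.5%, against 13.3% of all genes higher). MTG2 (0.51), a GTPase of the large subunit's maturation, and the initiation factor MTIF3 (0.46) were the largest, followed by GTPBP10 (0.45), also a maturation GTPase, and GUF1 (0.44), an elongation factor homolog. HSD17B10, a subunit of the mitochondrial RNase P, was the single gene of these lists that also passed with group alone. It averaged 68.7 ± 20.2 CPM in shRBPMS and 13.3 ± 4.28 CPM in shCtrl (SD, n = 3 each), with a log2 change of 2.37 (edgeR adjusted p = 0.028). The cytosolic ribosome list had 29 higher (35.4%, against 13.3% of all genes) and none lower of 82. Label set 1 has 1 library a group, so in a test between label sets all spread comes from replicates 2 and 3. In that test 14 of 76 members passed with a higher knockdown change in set 1 and 1 with a lower one, against 9.01% and 8.25% of all genes, and 11 of the 13 mitochondrially encoded mRNAs passed with a lower one.

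The difference of both effects, RB98# over DMSO minus shRBPMS over shCtrl, was tested over all 10 libraries. MRPS6 passed on the higher side, by 0.85 ± 0.21 on the log2 scale (SE, edgeR adjusted p = 0.0411), and MRPS18B (-0.82) and MRPL4 (-0.81) on the lower side (edgeR adjusted p = 0.035 and 0.016). These 3 of 76 members are 3.95%, against 8.15% of all 12126 genes (4.79% higher and 3.36% lower). With the block, 2 members passed on the higher and 29 on the lower side, a share of 40.8% that equals the 40.8% of all genes. The lower side held 38.2% of the members, where 20.1% of all genes were, and the higher side 2.63% against 20.7%.

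The 2 experiments used separate controls and separate tables. Of the 28 members that fell under RB98#, 4 rose with knockdown and the block (MRPL10, MRPL16, MRPL24 and MRPS18B), and 2 fell (MRPL35 and MRPS2). A positive knockdown change was found in 22 of them. With the block, 14.5% of all 76 members tested rose, 6.58% fell and 55 (72.4%) had a positive change. The 28 members were not tested against the others. Over 75 members, Pearson's r between the changes was -0.15 with the block and -0.14 with group alone.

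**Figure D5:**
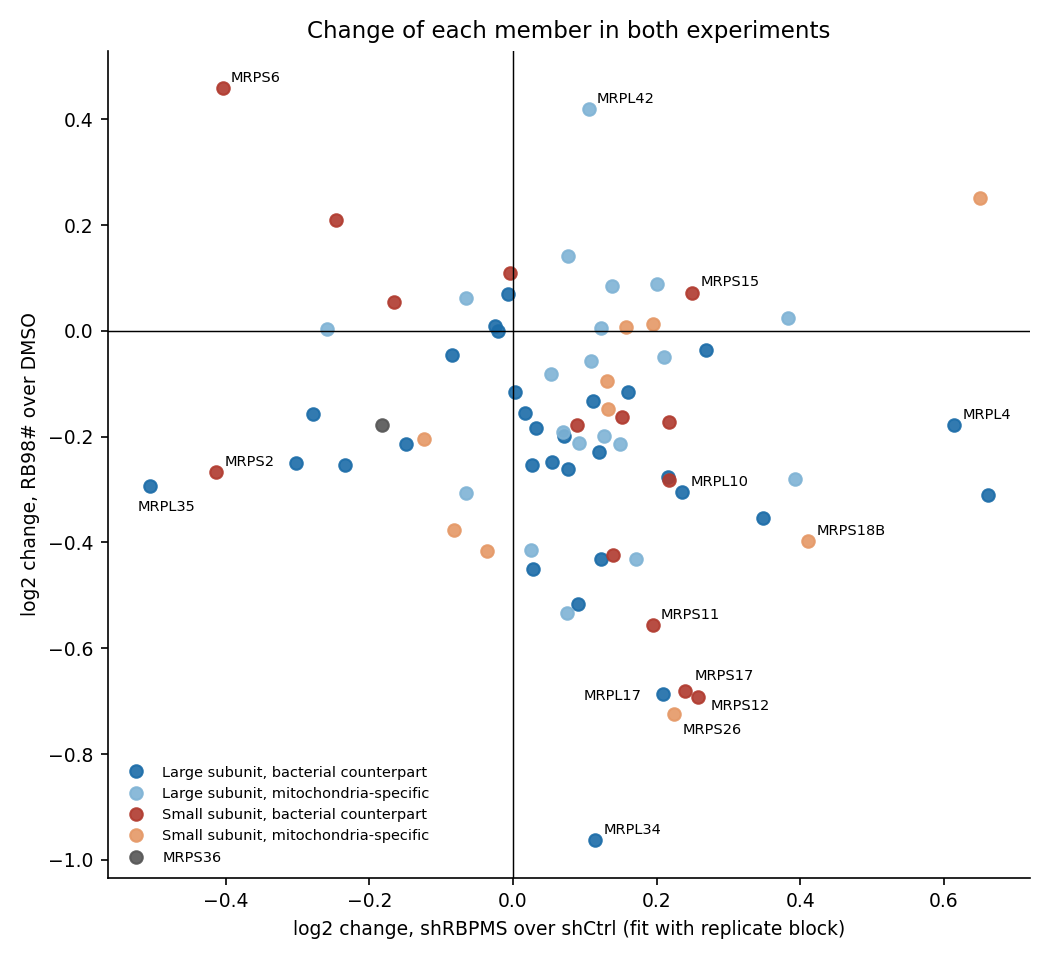
Each point is 1 member (n = 75), with its log2 change under knockdown, fitted with the replicate block (horizontal axis), and under RB98# (vertical axis), coloured by subunit and class. Most points lie below 0 on the vertical axis and right of 0 on the horizontal one, and MRPS6 lies alone at the upper left (-0.40 and 0.46).

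Levels per transcript length differed widely between members. Per kilobase of annotated exon, MRPL12 was at 64.9 CPM in RB98# and 92.7 CPM in DMSO, MRPS34 at 58.6 CPM in RB98# and 78.2 CPM in DMSO, and MRPL3 at 60.2 CPM in RB98# and 65.2 CPM in DMSO, the 3 highest in that table. Ranked by their DMSO level, the 3 lowest were MRPS11 with 3.58 CPM per kilobase in RB98# and 5.25 in DMSO, MRPS33 with 5.94 in RB98# and 4.99 in DMSO, and MRPL46 with 2.98 in RB98# and 3.42 in DMSO. In the knockdown table MRPS34, MRPL51 and MRPL37 were the highest in shCtrl and MRPL38, MRPL46 and MRPS24 the lowest. Exon length was taken as the union over all isoforms, which lowers the value of genes with long rare isoforms.

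Some members' levels differed between the tables far more than between groups. MRPS24 averaged 0.42 CPM in shRBPMS and 0.30 CPM in shCtrl, where it was too low to test, but 56.5 CPM in RB98# and 56.8 CPM in DMSO. MRPL38 averaged 92.4 CPM in DMSO against 7.21 CPM in shCtrl, and MRPS17 22.6 CPM in DMSO against 5.07 CPM in shCtrl. Of the 77 members in both tables, 7 were over 2-fold higher in DMSO and none over 2-fold lower. They include 4 of the 9 members with over 10% of exon bases shared with another gene on the same strand, among them MRPS24 (23.2%), MRPL38 (37.5%), MRPS17 (27.0%) and MRPL12 (68.2%), and 3 of the other 68. The part of overlapping genes, of the label sets or of the counting in these levels was not tested. MRPS5 carries another gene identifier in each table and was left out of the difference test.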

How the data were processed

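The authors deposited 1 table per experiment with raw counts per gene and library, and, per the submitters' processing notes, fastp 0.22.0, HISAT2 2.2.1, featureCounts 2.0.1, StringTie, DESeq2 1.32.0 and the build GRCh38 (hg38) were used. Their adjusted p-value and log2 fold change columns were used as deposited by the authors, only where named. The roles and settings of these tools, strand included, are not given in the sources used here. The tables hold only genes with summed counts of at least 27 (knockdown) and 50 (RB98#), and 10 other columns of per-library values were not used. Of the lines for RB98#, 112 were repeats and were dropped. The 4 other libraries of the series were not analysed here.

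Counts were fitted with edgeR 4.0.16 (R 4.3.3) after filterByExpr (minimum count 10, minimum total 15), with TMM factors, quasi-likelihood tests and Benjamini-Hochberg adjustment over all genes of a comparison. Each experiment was fitted against its own controls on group alone. The test of the difference between effects used all 10 libraries with a term for each group. Alternatives were a replicate block, a label set covariate, other scalings, no filter, DESeq2 1.42.0, limma-voom (limma 3.58.1) and leaving out each library. The test of the knockdown effect between label sets was chosen after seeing the data. The fits were tested on simulated data with the same dispersion for all genes and no offset between label sets. That test therefore does not cover the offset seen in the knockdown libraries.

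Same-numbered shRBPMS and shCtrl libraries deviated together from their group means (correlations 0.859, 0.787 and 0.811 over 10295 genes), so the block was treated as a pairing that the data show. That correlation was also high between replicates 2 and 3 (0.781 and 0.787), so the pairing largely separates replicate 1. In the RB98# experiment, with 2 numbers, it was -0.0689 and the numbers were not taken as pairs. Counts of replicates 2 and 3 differed by more than sampling noise (chi-square per gene 3.01 in shCtrl and 3.03 in shRBPMS), so each was kept as a library.

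The members, the gene lists and the tests were chosen with earlier results of these data known. Named members were, per comparison, up to 6 in each direction that passed and whose groups did not overlap, up to 5 in each direction of the difference test, the 3 highest and 3 lowest per exon length, and a panel of 19 members of known role. Others were named after their values were seen. Gene positions, exon lengths and overlaps came from GENCODE v29 (GRCh38), and promoters from RefSeq.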

Additional observations from a re-analysis of the deposited data

Results flagged for a closer look

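In a test of the knockdown effect between label sets, 15 of the 76 members tested (19.7%) passed, near the 17.3% of all genes (edgeR quasi-likelihood interaction test, adjusted p = 0.00793 to 0.0428). Label set 1 has 1 library a group and so no replicate, and the test takes all spread from replicates 2 and 3 and assumes that the lone libraries vary like them. The values are the log2 effect in label set 1 minus that in label set 2. In the large subunit they were 0.49 for MRPL17 and for MRPL52, 0.41 for MRPL24, 0.33 for MRPL49, 0.29 for MRPL18, 0.27 for MRPL20, 0.21 for MRPL3 and -0.3 for MRPL15. In the small subunit they were 0.41 for MRPS26, 0.38 for MRPS12 and for MRPS33, 0.28 for MRPS25, 0.26 for MRPS7 and 0.25 for MRPS15 and for MRPS16. Label set 1 also had the higher share of mitochondrial counts, and the part of that share in these differences was not tested.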

How the results depend on the processing

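For the knockdown, where group alone called no member, the replicate block gave 11 members higher and 5 lower, the label set covariate 17 and 7, replicates 2 and 3 summed with that covariate 5 and 1, and label set 2 alone 19 and 9. Library totals gave 1 higher, and DESeq2 1 higher and 1 lower. Leaving out 1 library gave 0 in each case, with a median log2 change of -0.07 to 0.20. Under RB98#, leaving out 1 library gave 15 to 34 members lower and 1 to 2 higher, with a median of -0.17 to -0.20. Library totals gave 44 lower and a median of -0.29, with all genes at -0.10. The replicate block moved the difference test to 31 members called, against 3. Among the alternatives, shares of all genes are given only for the replicate block and the label set covariate. The other counts can therefore not be read as a trait of the members. The cause of these shifts was not tested. MRPL36 (adjusted p = 0.0722), MRPL41 (0.0582) and MRPS18A (0.117) did not pass by DESeq2, and no member of the named set that passed on group alone changed sign under the alternatives run. The knockdown median turned negative without shCtrl replicate 1, and several named members with changes near 0 that did not pass changed sign. RB98# and DMSO had 2 libraries each and label set 1 had 1 library a group, which limits the precision.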

Other observations

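Other genes of the assembly list had lower levels under RB98# too. GTPBP10, a GTPase of large subunit maturation, averaged 22.04 ± 0.0155 CPM in RB98# and 30.41 ± 0.244 CPM in DMSO (SD, n = 2 each), a log2 change of -0.46 (edgeR adjusted p = 0.00101). MRM3, a methyltransferase of the large ribosomal RNA, averaged 10.8 ± 0.838 CPM in RB98# and 14.8 ± 0.376 CPM in DMSO (SD, n = 2 each), a log2 change of -0.45 (edgeR adjusted p = 0.014). RBPMS itself averaged 7.34 ± 1.02 CPM in RB98# and 6.78 ± 0.544 CPM in DMSO (SD, n = 2 each).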
